A study of Mus musculus with 4 samples.

Results

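The 33 genes described here encode proteins of the NF-kappaB pathway or are well-known targets of it. They were chosen by symbol with earlier results of these data known, and all 33 are among the 32285 genes of the count tables. They comprise 5 inhibitors of the IkappaB family, 5 transcription factor subunits, 8 kinases and scaffold proteins, 7 regulators of ubiquitin signalling, 1 receptor, 4 cytokines and 3 other targets. Cells carrying CD45, the surface marker of leukocytes, were taken with beads from tumours of CT26, a colon carcinoma line of Balb/c mice, and sequenced as single cells. All mice were 9 weeks old and bore CT26 tumours. The control group had 2 libraries, and what its mice received is not stated in the labels. The liproxstatin group had 2 libraries from mice given liproxstatin-1, a radical-trapping inhibitor of ferroptosis, for 8 days. The question, as the title puts it, is what neutrophil ferroptosis does in tumours, and here it is asked of the NF-kappaB genes of each leukocyte class. The labels do not tie the 2 libraries of a group to separate animals, so a p-value reflects library-to-library spread that may be technical.

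NF-kappaB is a family of dimeric transcription factors that is held inactive in the cytoplasm by IkappaB proteins. Signals from TNF receptors, Toll-like receptors and antigen receptors activate the IkappaB kinase complex, IkappaB is degraded, and the dimers enter the nucleus. Among the first genes they induce are their own brakes, such as Nfkbia (IkappaB-alpha) and Tnfaip3 (A20). In dendritic cells a second, noncanonical branch through Nfkb2 and Relb accompanies maturation.

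The libraries held between 83129874 and 168597163 unique molecular identifiers (UMIs, counted transcript molecules), and 25730 cells were kept. Between 4 and 22 cell barcodes were shared by any pair of libraries. Clusters were named from fixed markers, so a name such as neutrophils means neutrophil-like cells. 13 classes were tested, each with at least 20 cells in every library, of which mononuclear phagocytes pool monocytes with macrophages and dendritic cells pool all dendritic classes. Plasmacytoid dendritic cells, mast cells and basophils, and fibroblasts also had 20 cells in every library but were not tested on their own. There were 97 and 442 neutrophils in control and 583 and 391 in liproxstatin libraries. Migratory dendritic cells numbered 25, 30, 39 and 30 in the same order. Mononuclear phagocytes had median depths of 27758 and 29381 UMIs per cell in control and 24059 and 20551 in liproxstatin libraries. Levels are CPM, UMIs of a gene per 1000000 UMIs of its class in a library, and those set beside a test are also scaled by TMM, edgeR's correction for composition. The classes share their 4 libraries and are not independent of each other.

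The level of a member depended on the cell class, and levels by class are unscaled CPM. They are described without a test, and the members themselves were left out of the genes used for clustering. 13 of the 33 members had their highest mean level in migratory dendritic cells, a mature type that leaves tissue for lymph nodes. 7 had it in neutrophils and 6 in regulatory T cells, and the other 7 were spread over 4 classes. Relb, a noncanonical subunit, had 407 CPM ± 34.4 (SD, n = 4 libraries) in migratory dendritic cells and 58.7 ± 6.69 in regulatory T cells, the next class. Rel, the subunit c-Rel, had 690 CPM ± 176 there and 275 ± 79.1 in B cells. Cd40, the receptor through which T cells license dendritic cells, had 315 CPM ± 68.8 there and 72.6 ± 15.9 in B cells. The library ranges of first and second class did not overlap for these 3 genes. Summed macrophage markers in migratory dendritic cells were 4398 CPM in control library 1 and between 393 and 872 CPM in the other libraries.

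Il12b, the shared p40 subunit of interleukins 12 and 23, had the largest ratio of first to second class, 171. It had 1155 CPM ± 645 in migratory dendritic cells and 6.75 ± 8.79 in cDC1, the next class. Traf1, an adaptor of TNF receptors, had 999 CPM ± 88.7 in migratory dendritic cells and 486 ± 73.1 in regulatory T cells. Nfkbia was highest in neutrophils at 2762 CPM ± 940, but its lowest neutrophil library, at 1562 CPM, lay within the spread of the regulatory T cell libraries. Tnfaip2, a TNF-induced gene of myeloid cells, stood at 1048 CPM ± 308 in neutrophils and 113 ± 8.83 in monocytes, with no overlap of libraries. Tnf itself was highest in plasmacytoid dendritic cells, at 183 CPM ± 98.6, and its libraries there overlapped those of neutrophils. Several low levels are close to what free RNA gives. In CD8 T cells, free RNA was estimated to supply 62.4% of the Tnfaip2 level and 59.3% of the Cd40 level.

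**Figure D1:**
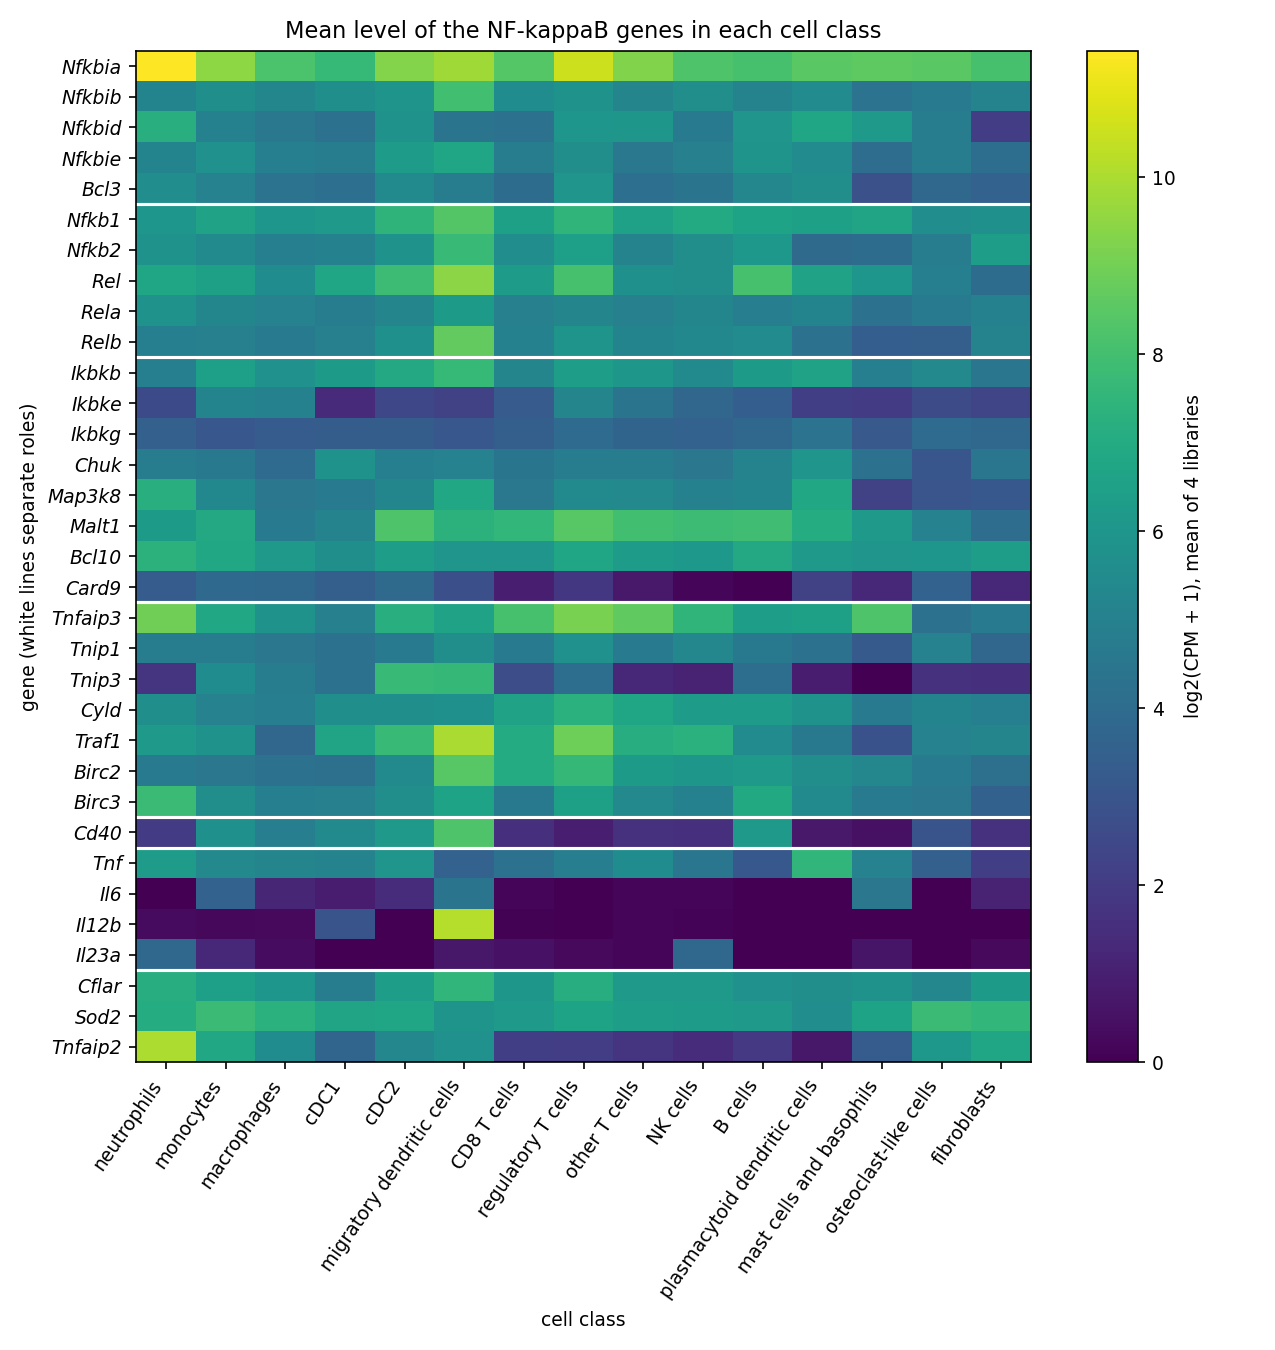
Mean level of each of the 33 genes (rows, grouped by role) in 15 cell classes (columns), as log2(CPM + 1) averaged over the 4 libraries. Migratory dendritic cells hold the highest level of 13 genes, among them Relb (407 CPM), Cd40 (315 CPM) and Il12b (1155 CPM).

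With liproxstatin-1, 3 classes and 1 pool each held members past the threshold, and all of those calls were higher. The threshold was an adjusted p of 0.05 from edgeR's quasi-likelihood test over all genes of a class. Malt1 rose in CD8 T cells, other T cells and macrophages, and Birc2 rose in macrophages and in the pool of mononuclear phagocytes. In CD8 T cells 1 of 28 tested members was higher, against 0.3% of all genes tested. In other T cells it was 1 of 26 members against 0.147% of genes, in macrophages 2 of 33 against 1.51%, and in mononuclear phagocytes 1 of 33 against 1.32%. No member was lower in any of the 13 classes, where the share of all genes called lower was 0.0515%, 0.0113%, 0.864% and 0.989% in the 4 classes just named. In the remaining 9 classes no member passed. Neutrophils had 0 of 28 members higher or lower, against 0.12% and 0.103% of genes, with 8 members under an unadjusted p of 0.05, all higher. Of all 5829 genes tested there, 474 were under that p in either direction. The DESeq2 Wald test called 8 genes and 0 members in neutrophils. Over the 13 classes, pools included, it made 14 member-by-class calls higher and 0 lower. Of the 14 calls, 7 were Malt1. The call in cDC1 was Il12b, which had 0 UMIs in both control libraries. The share of genes called higher and lower was 0.0573% and 0.00819% in monocytes, 0.0284% and 0.00946% in dendritic cells, 0.0821% and 0.0234% in cDC1, and 0.0496% and 0.0372% in cDC2. It was 0% and 0% in migratory dendritic cells, 0.302% and 0.0823% in regulatory T cells, 0.0934% and 0.028% in NK cells, and 0.0314% and 0% in B cells. In these 8 classes the members with an unadjusted p under 0.05 numbered between 0 (B cells) and 7 (monocytes). They were 7 of 32 in monocytes (1012 of 12207 genes) and 5 of 32 in dendritic cells (804 of 10573). They were 5 of 30 in cDC1 (488 of 8529), including Il12b, which had 0 UMIs in both control libraries there. In cDC2 they were 6 of 29 (597 of 8063). In migratory dendritic cells they were 5 of 25 (171 of 3126), and in regulatory T cells 1 of 27 (569 of 7289). NK cells had 5 of 28 (739 of 10701) and B cells 0 of 17 (119 of 3183).

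The direction of the members varied between classes, and no difference in direction between lineages was tested. The median log2 fold change of the tested members was 0.25 in neutrophils, 0.18 in mononuclear phagocytes and 0.11 in dendritic cells. It was 0.10 in regulatory T cells, 0.08 in other T cells, -0.03 in CD8 T cells and -0.07 in NK cells, while the median over all genes lay between -0.01 and 0.01 in all 13 classes. The member medians depended on the control libraries. Without control library 1 the median was 0.54 in neutrophils, 0.29 in mononuclear phagocytes, 0.21 in dendritic cells, 0.21 in regulatory T cells, 0.05 in CD8 T cells and -0.17 in NK cells. Without control library 2 it was 0.11, 0.11, 0.02, -0.06, -0.03 and 0.07 in the same classes, and 0.04 in other T cells. Both liproxstatin libraries lay above both controls for 12 of 28 members in neutrophils, where 18.7% of all genes did so. The same held for 19 of 33 members in mononuclear phagocytes (25.3% of genes), 16 of 32 in monocytes (20.3%) and 17 of 33 in macrophages (25%). It held for 9 of 32 in dendritic cells (19.1%) and 11 of 30 in cDC1 (16.9%), Il12b with 0 control UMIs among the latter. It held for 12 of 29 in cDC2 (19.3%) and 12 of 25 in migratory dendritic cells (16.2%). Among lymphocytes it held for 8 of 28 in CD8 T cells (20.7%), 9 of 27 in regulatory T cells (19%), 9 of 26 in other T cells (17.7%), 6 of 28 in NK cells (18.6%) and 2 of 17 in B cells (16%). Both libraries lay below both controls for 1 member in neutrophils (16.8% of genes), 1 in mononuclear phagocytes (24.1%), 3 in monocytes (19%), 1 in macrophages (23.1%) and 3 in dendritic cells (18.9%). They did so for 3 members in cDC1 (17.6%), 6 in cDC2 (18.9%), 0 in migratory dendritic cells (16.1%), 5 in CD8 T cells (21.4%), 2 in regulatory T cells (18.7%), 5 in other T cells (18.6%), 5 in NK cells (17.8%) and 4 in B cells (17%).

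**Figure D2:**
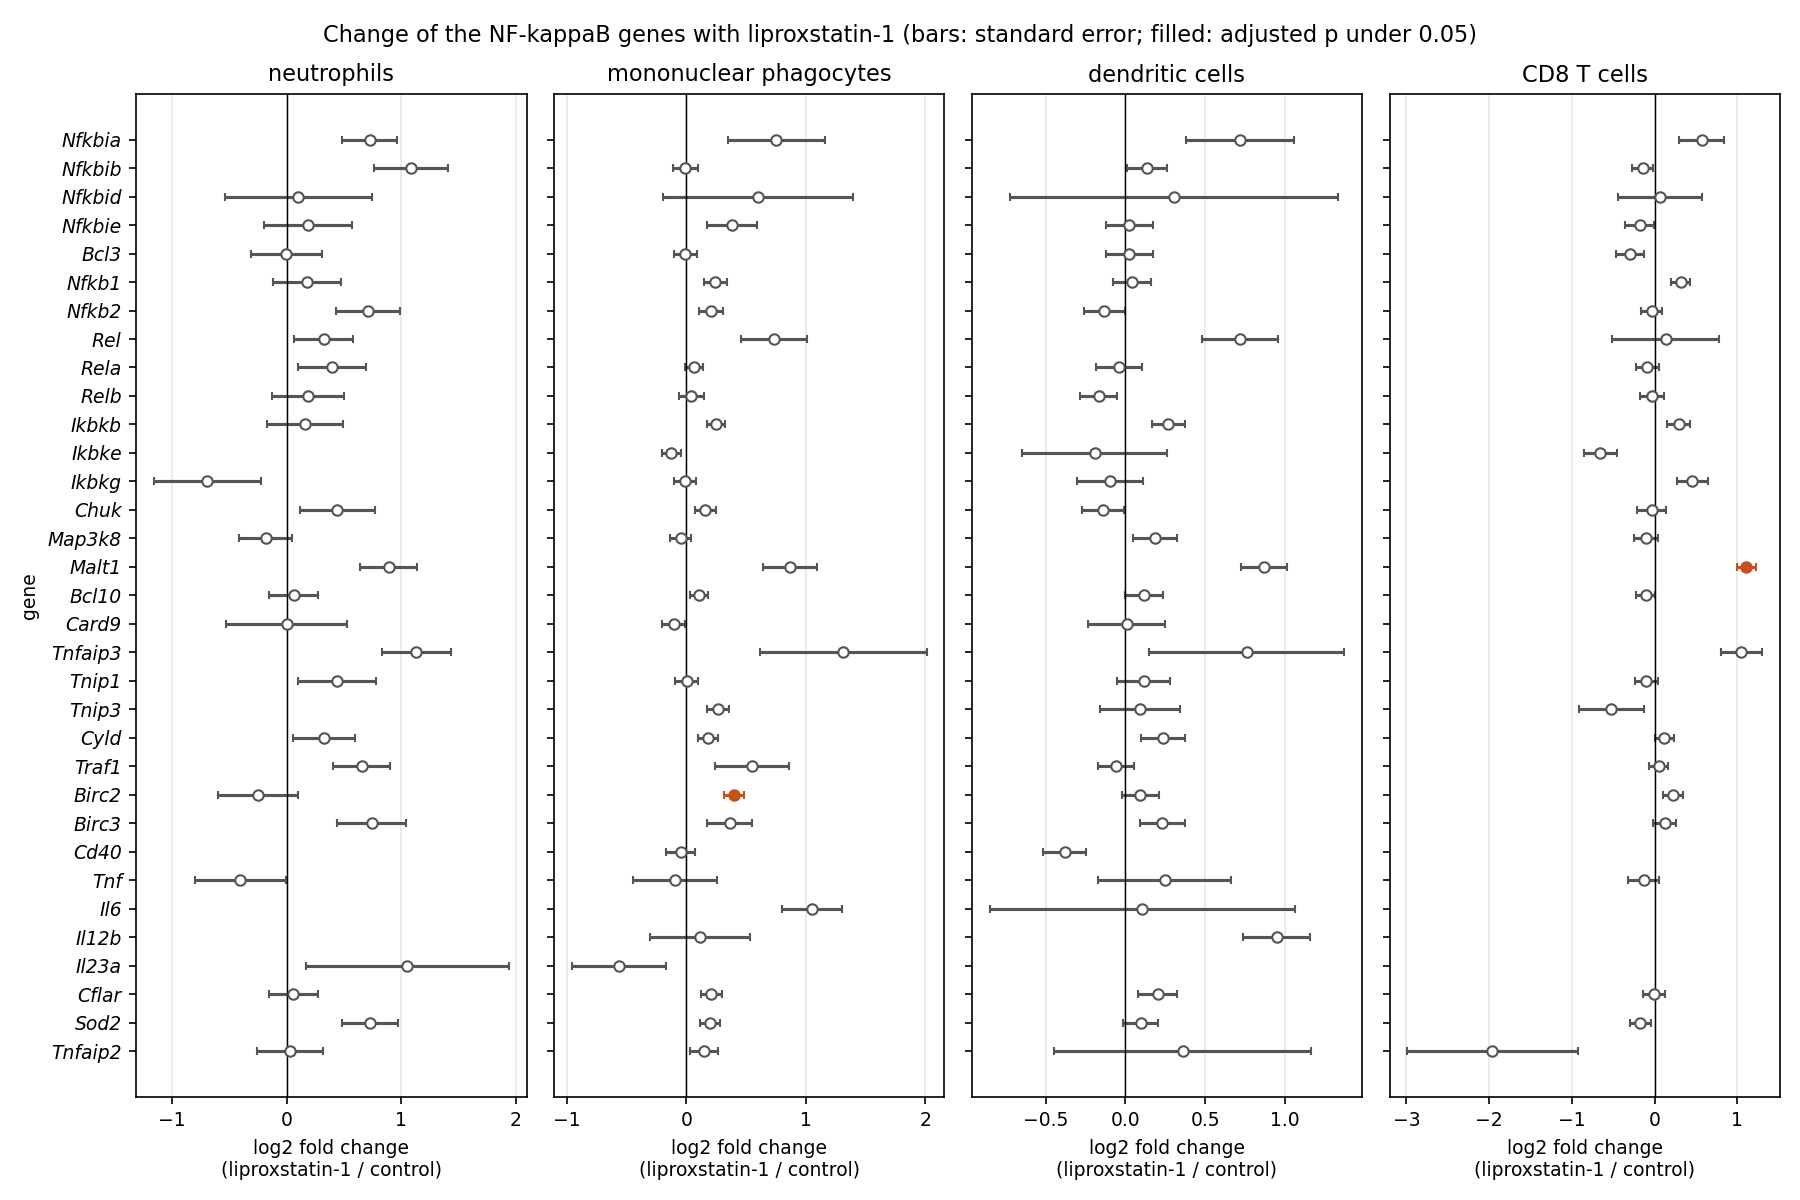
Log2 fold change of each tested gene with liproxstatin-1 (x axis, bars are standard errors) in neutrophils, mononuclear phagocytes, dendritic cells and CD8 T cells. Filled points passed an adjusted p of 0.05: Birc2 in mononuclear phagocytes (0.40) and Malt1 in CD8 T cells (1.11).

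Malt1 encodes the protease and scaffold of the CARD-BCL10-MALT1 complex, which carries antigen receptor and C-type lectin signals to NF-kappaB. The gene (ENSMUSG00000032688) lies on chromosome 18, from 65430938 to 65479067 on the plus strand of GRCm38, and no other annotated gene overlaps it. In CD8 T cells its TMM-scaled level was 131 and 113 CPM in control and 271 and 253 CPM in liproxstatin libraries. The log2 fold change there was 1.11 ± 0.12 (SE, n = 2 libraries per group, adjusted p = 0.00311). Other T cells had 209 and 143 CPM in control and 336 and 332 CPM in liproxstatin libraries. This gave 0.94 ± 0.15 on the log2 scale (adjusted p = 0.00619). Every liproxstatin library thus stood above every control library in both T cell classes. The 4 markers of regulatory T cells were also higher in sum, which does not give the direction of each. Their summed level was 528 and 394 CPM in control and 763 and 643 CPM in liproxstatin CD8 T cells, and 329 and 255 against 445 and 450 CPM in other T cells. Their part in the Malt1 change was not tested.

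Macrophages had the lowest Malt1 level of the tested classes. Their libraries had 20.1 and 16.0 CPM in control and 32.7 and 27.6 CPM with liproxstatin-1, a change of 0.74 ± 0.13 (adjusted p = 0.0258). Free RNA was estimated to supply 5.46% of the macrophage level, and the call held after its subtraction (adjusted p = 0.0307). Summed T cell markers in macrophages, 7 genes, ranged from 14.0 to 17.2 CPM in control and from 12.8 to 16.3 CPM in liproxstatin libraries.

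The remaining classes had Malt1 changes in the same direction that did not pass. Regulatory T cells, where its mean level was highest, had 301 and 258 CPM in control and 427 and 436 CPM in liproxstatin libraries. The change was 0.63 ± 0.15, with an adjusted p of 0.0522. NK cells had 181 and 126 against 314 and 285 CPM, a change of 0.97 ± 0.16 (adjusted p = 0.158). The groups did not overlap in either class. Neutrophils had 61.5 and 47.1 against 94.3 and 96.2 CPM (0.89 ± 0.25, adjusted p = 0.208). In cDC2, dendritic cells that present to CD4 T cells, the level was 246 and 131 against 476 and 396 CPM (1.21 ± 0.33, adjusted p = 0.555). Control library 2 was the lower control in both.

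Both liproxstatin libraries lay above both controls for Malt1 in 11 of 11 unpooled classes tested, with log2 changes from 0.42 in migratory dendritic cells to 1.21 in cDC2. Counted by cluster, this held in 20 of 25 clusters with enough cells, and in 0 clusters did both libraries lie below. Of 5340 genes with a mean of at least 20 CPM, 0.262% reached 20 clusters, a number set by the values of Malt1 and Tnfaip3, and the median gene reached 3. The Malt1 change in CD8 T cells exceeded that in mononuclear phagocytes by 0.25 ± 0.13, which did not pass (adjusted p = 0.764). No other member passed that test either (0 of 32 called, lowest adjusted p = 0.229, 5 with an unadjusted p under 0.05), where 0.0556% of all genes did. Of all 14389 genes in it, 1015 had an unadjusted p under 0.05. Leaving out either liproxstatin library ended the CD8 T cell call (adjusted p = 0.169 without library 1 and 0.157 without library 2) and the macrophage call (0.27 and 0.0928). The call in other T cells held without each of the 4 libraries in turn.

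**Figure D3:**
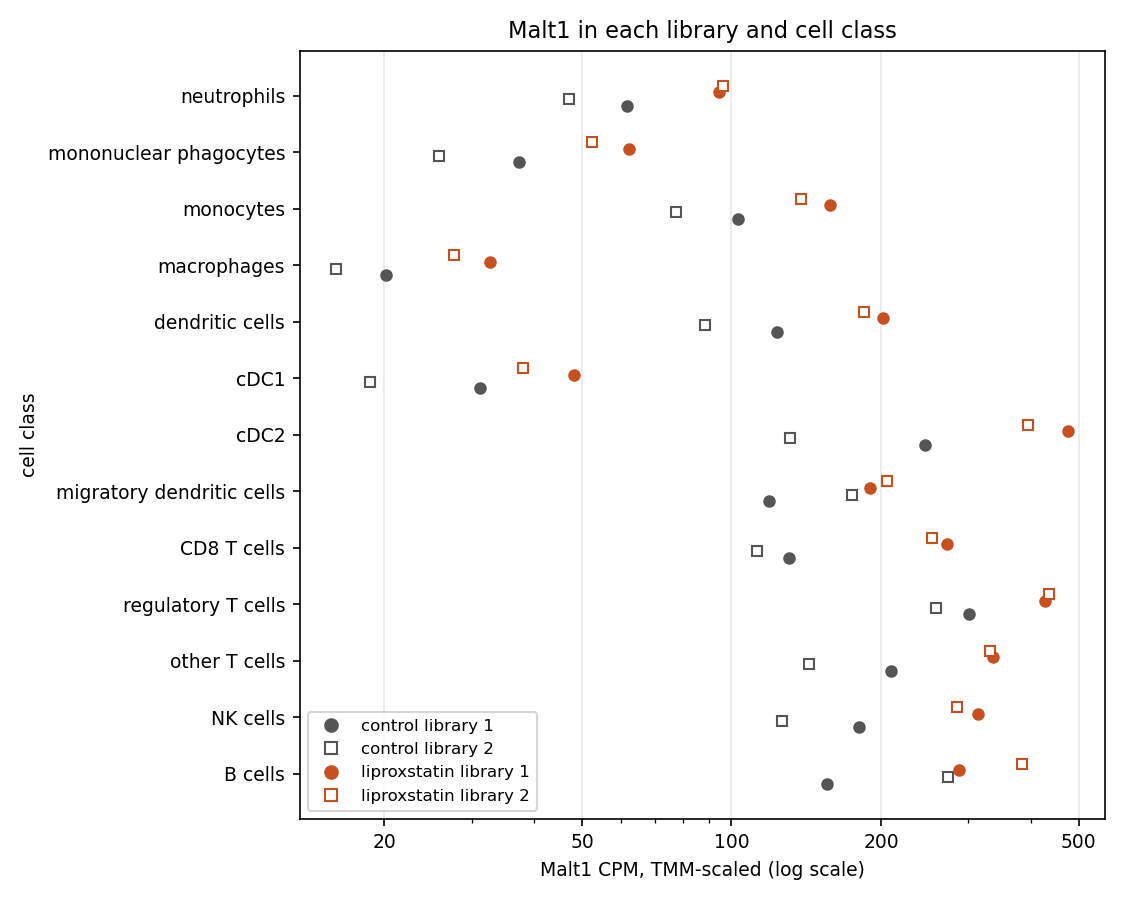
Malt1 level in TMM-scaled CPM (log axis) in each library (control grey, liproxstatin orange; circles library 1, squares library 2) for the 13 tested classes. In each class both liproxstatin libraries sit to the right of both controls, for example 271 and 253 against 131 and 113 CPM in CD8 T cells.

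Bcl10, the adaptor that binds MALT1, had no call in any class. In CD8 T cells it had 66.1 and 60.3 CPM in control and 58.9 and 58.1 CPM in liproxstatin libraries. Card9, the myeloid scaffold upstream of BCL10, was tested in 5 unpooled classes and its changes ranged from -0.46 to 0.28. In mononuclear phagocytes its libraries overlapped, at 13.4 and 14.5 against 12.2 and 13.8 CPM. Card9 had too few UMIs to be tested in CD8 T cells and other T cells.

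Among the IkappaB kinases, Ikbkb, the main catalytic subunit of the canonical pathway, had positive changes in 10 of 11 unpooled classes, between -0.35 and 0.34, none past the threshold. In mononuclear phagocytes it had 57.0 and 53.7 CPM in control and 65.9 and 65.8 CPM in liproxstatin libraries (0.25 ± 0.08, adjusted p = 0.13). Ikbke, a noncanonical kinase linked to interferon responses, had negative changes in all 6 unpooled classes in which it was tested. Its level in CD8 T cells was 11.1 and 9.99 against 6.73 and 6.57 CPM, a change of -0.66 ± 0.20 (adjusted p = 0.28). The 2 groups did not overlap for either kinase in these classes. Chuk (the second catalytic subunit), Ikbkg (the regulatory subunit NEMO) and Map3k8 (the kinase TPL2) had no call. Chuk changes ranged from -0.39 to 0.50 and those of Ikbkg from -0.97 to 0.64. Map3k8 changes ranged from -0.51 in cDC1 to 1.07 in migratory dendritic cells.

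Among the inhibitors no member passed in any class in the main fit. With no filter on low counts Nfkbia passed in 6 of 13 classes. In those 6, between 37 (migratory dendritic cells) and 433 (CD8 T cells) of all genes were called. Without control library 1, Nfkbia, Nfkbid and Nfkbie passed in some classes. More of all genes also passed in every class then, and only 1 control library was left. Nfkbia, which returns NF-kappaB to the cytoplasm, had 2649 and 1585 CPM in control and 3196 and 3757 CPM in liproxstatin neutrophils, a change of 0.72 ± 0.24 (adjusted p = 0.365). In migratory dendritic cells it had 647 and 675 against 1249 and 1308 CPM (0.95 ± 0.20, adjusted p = 0.458). The groups did not overlap in either class. In mononuclear phagocytes the levels were 371 and 203 against 533 and 435 CPM, and control library 2 was again the lower control. Over the 11 unpooled classes both liproxstatin libraries lay above for Nfkbia in 8 and below in 1.

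Nfkbib (IkappaB-beta) was among the largest changes of neutrophils. It had 26.4 and 20.3 CPM in control and 40.3 and 53.5 CPM in liproxstatin libraries, a change of 1.08 ± 0.32 (adjusted p = 0.265). Its changes in the other classes ranged down to -0.43. Reads of Nfkbib could include those of Sirt2 and Ccer2, which overlap it on the other strand, if strand was not used in counting. Nfkbid, an inducible nuclear inhibitor, differed more between the controls than between the groups. In neutrophils it had 243 and 67.9 CPM in control and 143 and 145 CPM in liproxstatin libraries. Nfkbie and Bcl3 changed by -0.23 to 0.44 and by -0.35 to 1.28 over the unpooled classes, with no call.

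The promoters of several members hold matches to the DNA motif that NF-kappaB dimers bind. The 120 bases before the start sites of 6 members are given from the RefSeq promoter table (GRCm38.p6), 5′ to 3′ on the strand of the gene, with matches to the kappaB consensus on either strand in capitals. They are shown because they include feedback inhibitors (Nfkbia, Tnip1, Tnip3), subunits (Rel, Nfkb2) and a cytokine (Il6) with a match close to the start. A match can lie on the other strand of the gene. The positions, in the same order, are chr12:55492648-55492767 (minus strand), chr11:54962941-54963060 (minus strand), chr6:65590278-65590397 (plus strand), chr11:23770970-23771089 (minus strand), chr19:46304617-46304736 (plus strand) and chr5:30012994-30013113 (plus strand).
Nfkbia: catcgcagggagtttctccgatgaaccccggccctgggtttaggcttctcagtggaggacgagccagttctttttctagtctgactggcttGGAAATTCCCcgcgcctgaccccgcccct
Tnip1: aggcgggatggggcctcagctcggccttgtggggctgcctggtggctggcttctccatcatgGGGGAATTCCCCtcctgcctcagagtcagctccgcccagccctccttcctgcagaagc
Tnip3: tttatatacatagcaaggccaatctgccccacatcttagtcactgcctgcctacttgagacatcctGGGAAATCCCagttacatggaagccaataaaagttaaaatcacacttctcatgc
Rel: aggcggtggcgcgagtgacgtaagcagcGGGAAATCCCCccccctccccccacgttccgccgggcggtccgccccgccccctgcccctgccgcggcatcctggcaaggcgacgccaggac
Nfkb2: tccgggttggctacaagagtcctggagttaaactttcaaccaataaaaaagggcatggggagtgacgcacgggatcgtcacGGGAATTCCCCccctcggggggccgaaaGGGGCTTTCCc
Il6: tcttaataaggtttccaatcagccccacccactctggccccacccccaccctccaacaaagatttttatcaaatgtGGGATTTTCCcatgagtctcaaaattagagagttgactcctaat

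The table held 26 of the 33 members. A match to the consensus within 250 bases before any listed start was found for 12 of the 26 (46.2%) and for 1204 of 27025 genes of the table (4.46%). The list holds known NF-kappaB targets, so the share describes its choice. A match is a description of the sequence only. In the Nfkbia promoter the match began 29 bases before the start, and in Il6 it began 44 bases before it. Birc2 and Traf1, which are named in the comparisons here, had no match in their windows. Tnfaip3 had 2 matches, beginning 125 and 12 bases before a listed start. Malt1 was not among the members in the promoter table.

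The subunit genes had no call in any class in the main fit. Rel had the most uniform direction, with positive changes in 11 of 11 unpooled classes, from 0.09 to 1.06. It passed in 0 of 13 classes in the main fit. With no filter on low counts it passed in 3 (monocytes, dendritic cells and cDC1), where 308, 196 and 90 of all genes were called. With the replicate block it passed in 5, where between 23 and 648 of all genes were called. Some fits that left out a library also called it, with 1 library left in a group. In cDC1, the dendritic cells that cross-present antigen, it had 89.0 and 67.0 CPM in control and 160 and 112 CPM in liproxstatin libraries (0.80 ± 0.20, adjusted p = 0.448). Nfkb1, the source of p50, had 82.2 and 77.8 against 99.4 and 99.4 CPM in CD8 T cells (0.31 ± 0.11, adjusted p = 0.376). In both classes the groups did not overlap. Nfkb2, the source of p52, had 58.6 and 36.4 against 69.6 and 69.8 CPM in neutrophils (0.71 ± 0.28, adjusted p = 0.494). Rela and Relb changed between -0.49 and 0.39 and between -0.43 and 0.18, and were positive in 5 of 10 and 5 of 11 unpooled classes.

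Of the ubiquitin regulators, Birc2 and Traf1 had results past a threshold. Birc2 encodes cIAP1, a ubiquitin ligase that acts downstream of TNF receptors and restrains the noncanonical branch. In mononuclear phagocytes it had 17.0 and 16.0 CPM in control and 21.5 and 22.0 CPM in liproxstatin libraries. It rose by 0.40 ± 0.08 on the log2 scale (adjusted p = 0.0372), and in macrophages alone by 0.42 ± 0.09 (adjusted p = 0.0314). Libraries did not overlap in either. Without control library 2 the adjusted p was 0.112 in mononuclear phagocytes, and without liproxstatin library 1 or 2 it was 0.285 or 0.183. In macrophages the same 3 libraries ended the call, at adjusted p of 0.13, 0.172 and 0.12. Birc3, the paralog cIAP2, had 35.3 and 24.4 against 38.4 and 38.1 CPM in mononuclear phagocytes (0.36 ± 0.19, adjusted p = 0.428).

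Traf1 was the 1 of 33 members whose response differed between monocytes and macrophages, where 0.118% of all genes were called in either direction. The class named monocytes also held macrophage markers, 9 genes, at 9153 to 10790 CPM in sum. Its 8 monocyte markers summed to 4740 to 5367 CPM, and the part of this mixture in the difference was not tested. In monocytes Traf1 had 61.9 and 43.3 CPM in control and 58.8 and 56.6 CPM in liproxstatin libraries. In macrophages it had 11.3 and 7.51 CPM in control and 16.9 and 14.7 CPM in liproxstatin libraries. The groups overlapped in monocytes and did not in macrophages. The change was 0.14 in monocytes and 0.76 in macrophages, a difference of -0.59 ± 0.10 (adjusted p = 0.0406). This call was lost without control library 1, control library 2 or liproxstatin library 1. Tnfaip3 differed in the same direction by -0.48 ± 0.08, with an adjusted p of 0.0524. No member differed between neutrophils and mononuclear phagocytes (0 of 32, lowest adjusted p = 0.749, 3 with an unadjusted p under 0.05), where 0.0587% of genes were called. Of all 13632 genes compared there, 479 had an unadjusted p under 0.05.

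Tnfaip3 encodes A20, the ubiquitin-editing enzyme that shuts the pathway off, and had differences of more than 1 on the log2 scale in several classes, none past the threshold. Neutrophils had 442 and 198 CPM in control and 665 and 673 CPM in liproxstatin libraries, a change of 1.13 ± 0.30 (adjusted p = 0.208). Mononuclear phagocytes had 58.6 and 21.6 against 110 and 88.0 CPM (1.31 ± 0.70, adjusted p = 0.523). CD8 T cells had 217 and 142 against 409 and 330 CPM (1.05 ± 0.25, adjusted p = 0.352). The groups did not overlap in these classes, but the controls differed by a wide margin, with library 2 the lower. Over the 11 unpooled classes its changes were all positive, from 0.35 to 1.45, and both liproxstatin libraries lay above in 9. It passed the threshold in 0 of 13 classes in the main fit. With no filter on low counts it passed in 3 (neutrophils, CD8 and regulatory T cells), where 55, 433 and 89 of all genes were called. It passed in 2 with the replicate block and in 1 with equal cells per library. With each library left out in turn, its change ranged from 0.60 to 1.78 in neutrophils and from 0.75 to 2.2 in mononuclear phagocytes. In CD8 T cells it ranged from 0.77 to 1.39.

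**Figure D4:**
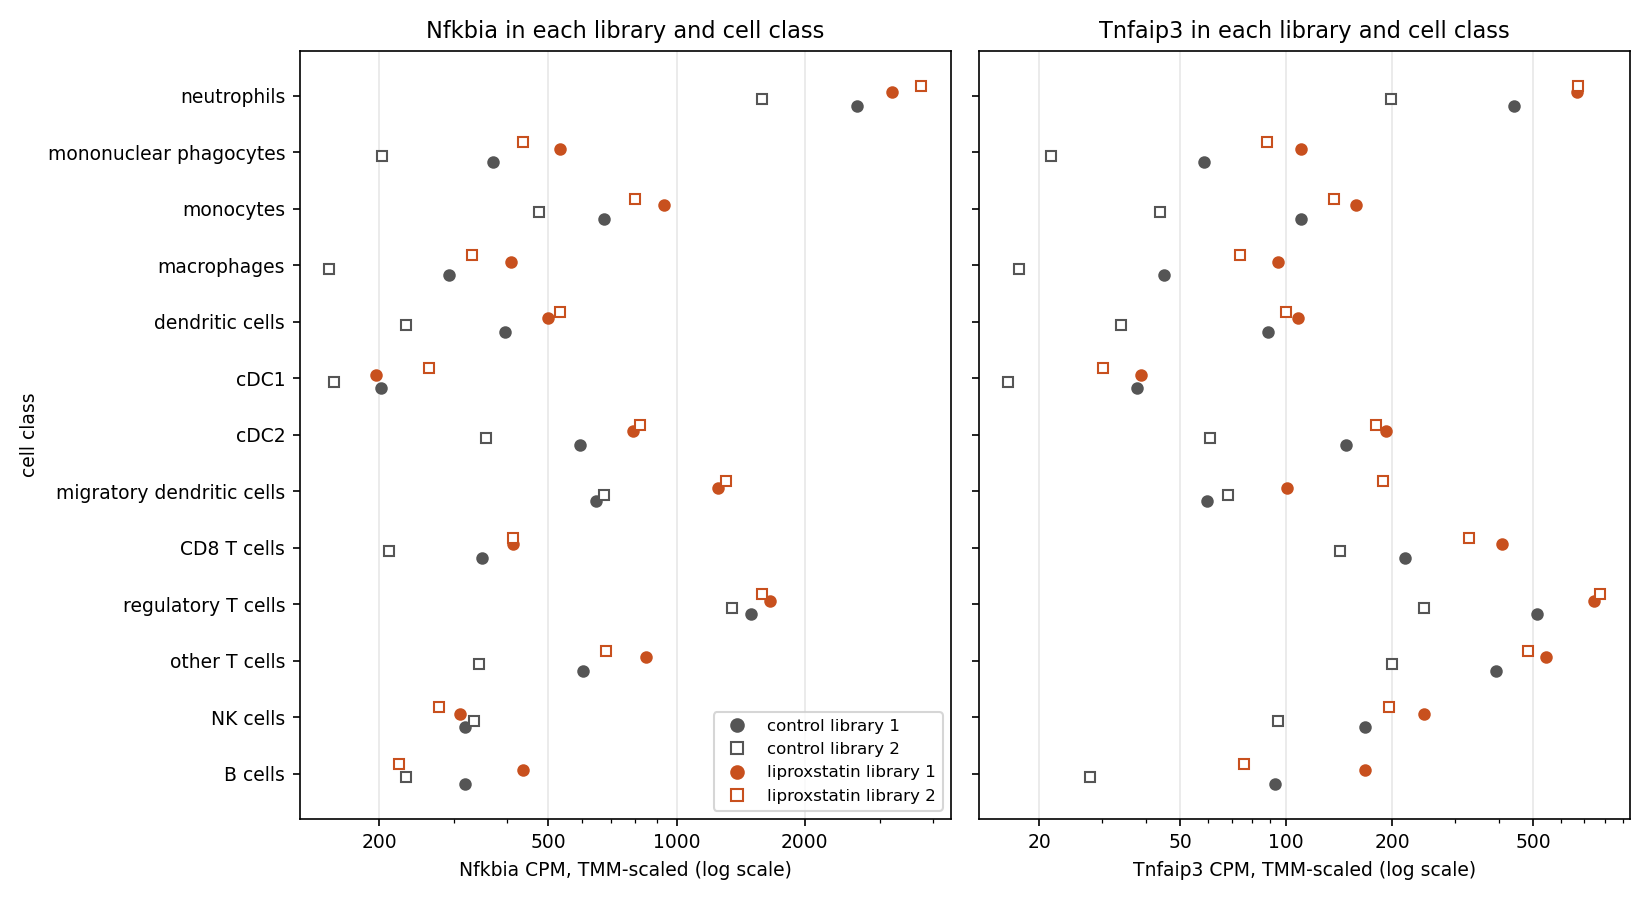
Nfkbia (left) and Tnfaip3 (right) in TMM-scaled CPM (log axes) in each library and tested class; control grey, liproxstatin orange, circles library 1, squares library 2. In neutrophils the liproxstatin libraries lie above the controls for both genes, and control library 2 is the lowest (1585 CPM for Nfkbia and 198 CPM for Tnfaip3).

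A list of 20 genes induced by tissue dissociation, none of them a member, moved with these 2 feedback genes in part. Its summed level in mononuclear phagocytes was 8717 and 6853 CPM in control and 10638 and 10147 CPM in liproxstatin libraries. There 4 of its 20 genes rose (Dusp1, Fosb, Klf6 and Dnajb1), against 1.32% of all genes. In neutrophils the sums were 33198 and 28984 CPM in control and 29287 and 32356.5 CPM in liproxstatin libraries, and none of 19 tested genes passed. In macrophages 6 of its 20 genes rose (1.51% of all genes) and in CD8 T cells 2 of 20 (0.3%). Regulatory T cells had calls in both directions, with Klf6 higher (0.57 ± 0.13) and Zfp36 lower (-1.29 ± 0.17, adjusted p = 9.62e-06). Jund rose in cDC1 and Socs3 in cDC2. None of the list passed in monocytes, dendritic cells, migratory dendritic cells, other T cells, NK cells or B cells. Of 19 genes tested in B cells, 6 had a positive change, and the median log2 change was -0.42. Control library 2 had the lowest sum in all 13 classes. The part of handling in the levels of Nfkbia and Tnfaip3 was not tested. Of 10 glucocorticoid-induced genes, 5 rose in mononuclear phagocytes (1.32% of all genes), 2 in CD8 T cells (0.3%) and 1 in neutrophils (0.12%). Macrophages had 4, monocytes 3, other T cells 2, and dendritic cells, cDC1, cDC2, regulatory T cells and NK cells 1 each. None rose in migratory dendritic cells or B cells, and none fell in any class. Tsc22d3 (GILZ), known to bind NF-kappaB subunits, rose in every class with a call. In CD8 T cells it had 50.7 and 48.0 against 191 and 181 CPM (1.91 ± 0.12, adjusted p = 1.04e-05).

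The A20-binding proteins and the deubiquitinase Cyld had no call. Tnip3, an inducible A20 partner, had 21.6 and 24.5 CPM in control and 34.6 and 28.0 CPM in liproxstatin macrophages (0.44 ± 0.11, adjusted p = 0.0876). In monocytes it had 53.1 and 48.2 against 41.5 and 42.8 CPM, the other direction. The difference between these classes was -0.67 ± 0.15 (adjusted p = 0.287). Tnip1 changes ranged from -0.46 to 0.68, and those of Cyld from -0.06 to 0.35.

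Cd40 had negative changes in the 6 unpooled classes in which it was tested. In cDC2 it had 92.1 and 76.7 CPM in control and 59.5 and 57.4 CPM in liproxstatin libraries (-0.53 ± 0.18, adjusted p = 0.516). The groups did not overlap there. In migratory dendritic cells, where its level was highest, the groups overlapped, at 455 and 285 against 314 and 313 CPM.

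The cytokine members had no call, and Il6, Il12b and Il23a gave few UMIs in most classes. Il12b in migratory dendritic cells had 987 and 610 CPM in control and 1154 and 2246 CPM in liproxstatin libraries. Both liproxstatin libraries lay above, with a change of 1.09 ± 0.37 (adjusted p = 0.836), from 12 and 17 cells with a UMI in control and 15 and 17 in liproxstatin libraries. In cDC1 it had 0 and 0 UMIs in control and 52 and 18 in liproxstatin libraries. Il12b thus passed the filter on low counts there only through the liproxstatin libraries, and no fold change or p-value is given for it. It is still included in the cDC1 counts of members by unadjusted p and by library order, where it is not support for a change. The UMIs came from 6 and 2 cells, and single cells held 33 of the 52 and 17 of the 18. Summed markers of migratory dendritic cells in cDC1 were 253 and 491 CPM in control and 368 and 429 CPM in liproxstatin libraries, and the part of such cells in the Il12b counts was not tested. In the pool of dendritic cells Il12b had 52.1 and 39.8 against 73.2 and 104 CPM (0.95 ± 0.21, adjusted p = 0.35), again with no overlap.

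Il6, a cytokine of acute inflammation, had 2.89 and 1.68 CPM in control and 4.79 and 4.46 CPM in liproxstatin mononuclear phagocytes. The change was 1.05 ± 0.25 (adjusted p = 0.112), and the groups did not overlap. Tnf, the prototype activator and target of the pathway, had 144 and 53.6 against 54.9 and 72.6 CPM in neutrophils, with overlapping groups. In cDC2 it had 89.4 and 62.0 against 54.4 and 39.0 CPM (-0.69 ± 0.24, adjusted p = 0.499). Both liproxstatin libraries lay below for Tnf in 3 of 9 unpooled classes and above in 0. Il23a, the p19 subunit of interleukin 23, followed library number rather than group in neutrophils, at 20.5 and 4.77 CPM in control and 25.7 and 4.54 CPM in liproxstatin libraries. This rested on 7, 8, 51 and 5 UMIs, and the fitted change was 1.05 ± 0.89 (adjusted p = 0.869), or -1.03 without liproxstatin library 1.

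The other targets had no call. Sod2, the mitochondrial superoxide dismutase, had 82.0 and 118 CPM in control and 149 and 201 CPM in liproxstatin neutrophils (0.73 ± 0.24, adjusted p = 0.373), with no overlap. Cflar, which encodes the caspase-8 inhibitor c-FLIP, changed by -0.36 to 0.37 over the unpooled classes. Tnfaip2 had 1444 and 675 against 1045 and 1088 CPM in neutrophils, so that the liproxstatin libraries lay between the controls. Its largest change was in CD8 T cells, where it had 8.81 and 1.79 against 1.78 and 0.746 CPM (-1.96 ± 1.03, adjusted p = 0.662). The free RNA estimate in CD8 T cells was 8.46% in control library 1 and between 1.52% and 2.32% in the others. Summed macrophage markers in CD8 T cells were 1587 CPM in control library 1 and between 293 and 423 CPM in the others, and their part in that change was not tested.

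A wider list of 69 pathway genes outside the members was fitted alongside. In neutrophils 2 of 56 tested genes rose and 0 fell, against 0.12% and 0.103% of all genes, with a median log2 change of 0.19. These were Cxcl10, a chemokine for T cells (85.0 and 92.4 against 225 and 301 CPM, adjusted p = 0.00562), and Icam1, an adhesion molecule (35.2 and 20.3 against 83.2 and 97.1 CPM, adjusted p = 0.00782). In mononuclear phagocytes 1 of 68 rose, the costimulator Cd80 (0.88 ± 0.11), and 1 fell, the metalloproteinase Mmp9 (-1.08 ± 0.13), with a median of 0.16. The shares of all genes there were 1.32% and 0.989%. In macrophages 2 of 68 rose (1.51% of genes), Cd80 (0.86 ± 0.11) and the chemokine Ccl5 (0.90 ± 0.09). In CD8 T cells 1 of 64 rose (0.3% of genes), the chemokine Ccl5 (0.83 ± 0.10), with a median of -0.01. In regulatory T cells 3 of 49 rose (Cxcl10, Cxcl2 and Cd83), against 0.302% of genes. In NK cells, with 58 tested, Il1b and Cxcl2 rose (0.0934% of genes) and Cd83 fell (0.028%). Free RNA was estimated at 2.8% to 3.7% in regulatory T cells, 1.8% to 3.0% in NK cells and 5.1% to 6.8% in neutrophils. Its part in these changes and in those of neutrophils was not tested. In other T cells 1 of 54 rose (0.147% of genes), the atypical inhibitor Nfkbiz (1.04 ± 0.16), and in dendritic cells none of 63 passed. Among the 20 receptors and adaptors of the list, none passed in neutrophils, mononuclear phagocytes, dendritic cells or CD8 T cells.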

How the data were processed

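Single-cell RNA was measured in 2 control and 2 liproxstatin libraries. The deposited values are counts of UMIs per gene and barcode, 1 matrix per library, not normalized, per the file headers. Those headers give Cell Ranger 6.1.1, whereas version 4 and the mm10 build stand in the submitters' processing notes, and which applies is not settled.

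Cells with at least 200 genes and under 15% mitochondrial UMIs were kept. The cells most like simulated doublets (Scrublet in scanpy 1.11.5, 0.8% per 1000 barcodes) were left out of comparisons, since Scrublet's own threshold marked 1 and 5 cells in the control libraries. Leiden clustering (python-igraph 0.11.9) used 2368 variable genes without the members, and 26 of 30 clusters were named. Counts summed per class and library were fitted with edgeR 4.0.16 (filterByExpr, TMM, quasi-likelihood F test) and Benjamini-Hochberg adjusted over all genes of the class. SE is the log2 fold change over the square root of F. Responses were compared between classes by an interaction term with library as a block. DESeq2 1.42.0, other filters, gates and left-out libraries were alternatives. The fit was tested on simulated data. Free RNA was estimated from genes of other classes. Positions come from GENCODE M21 (GRCm38). Members described by library were those past the threshold in any class or interaction, or among the 3 largest changes in neutrophils, mononuclear phagocytes, dendritic cells or CD8 T cells; others were chosen after their values were seen. The members and lists were chosen with earlier results of these data known.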

Additional observations from a re-analysis of the deposited data

Results flagged for a closer look

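The response of Traf1 to liproxstatin-1 differed between monocytes and macrophages by an interaction test, with a difference in log2 fold change of -0.59 (edgeR adjusted p = 0.0406). The change was 0.14 in monocytes and 0.76 in macrophages. The cause was not tested.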

How the results depend on the processing

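The limits are the 2 libraries per group, control library 2, in which several feedback genes were low, and the shallow class of migratory dendritic cells. The values given here are numbers of members past the threshold. Over 29 such numbers and 430 alternatives, 332 equalled the main value or stayed within 1.5 times it. Most main values were 0, and a 0 that stayed 0 counted as unchanged. The tally thus does not measure how stable the calls were. Over 25 named log2 fold changes and 391 alternatives, 18 lost the threshold, 62 passed it newly and no called value changed sign. The fold changes include Il12b in cDC1, which had 0 UMIs in both control libraries. Its 14 alternatives are not support for a change. Among values that were not called, Il23a in neutrophils became -0.24 without control library 2 and -1.03 without liproxstatin library 1, and Il12b in dendritic cells became -0.08 with equal cells per library. Birc2 was not called with equal cells per library (adjusted p = 0.0609 in mononuclear phagocytes and 0.0777 in macrophages) or per cluster (0.0952 and 0.13). Malt1 in other T cells was not called with doublets kept (0.0547), at resolution 2 (0.0749) or with equal cells per cluster (0.092), and in macrophages with equal cells per cluster (0.407).

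With no filter on low counts, members higher numbered 2 in neutrophils, 5 in mononuclear phagocytes, 4 in monocytes, 6 in macrophages, 3 in dendritic cells, 3 in cDC1, 2 in cDC2, 2 in migratory dendritic cells, 3 in CD8 T cells, 2 in regulatory T cells, 2 in other T cells and 1 in NK cells, and members lower 2 in CD8 T cells and 1 in NK cells; 3 responses differed between monocytes and macrophages and 2 between CD8 T cells and mononuclear phagocytes. With the DESeq2 Wald test, members higher numbered 2 in mononuclear phagocytes, 1 in monocytes, 4 in macrophages, 2 in dendritic cells, 1 in cDC1, 1 in cDC2 and 1 in NK cells. All genes called without the filter numbered 55 in neutrophils, 1199 in mononuclear phagocytes, 308 in monocytes, 1041 in macrophages and 196 in dendritic cells. They numbered 90 in cDC1, 161 in cDC2, 37 in migratory dendritic cells, 433 in CD8 T cells and 89 in regulatory T cells. Other T cells had 85, NK cells 176. The Wald test called 571 genes in mononuclear phagocytes, 47 in monocytes, 458 in macrophages and 22 in dendritic cells. It called 16 in cDC1, 15 in cDC2 and 21 in NK cells. With DESeq2 size factors, 2 responses differed between monocytes and macrophages. With doublets kept, members higher numbered 1 in cDC1, 1 in regulatory T cells and 0 in other T cells, and 2 responses differed between monocytes and macrophages. With equal cells per library, members higher numbered 0 in mononuclear phagocytes (267 genes called) and 1 in macrophages (231). They numbered 1 in dendritic cells (12) and 1 in regulatory T cells (35). With equal cells per cluster, they numbered 0 in mononuclear phagocytes, 0 in macrophages and 0 in other T cells. The per-cell marker gate gave 1 higher in cDC1 and 1 response that differed between CD8 T cells and mononuclear phagocytes, and resolution 2 gave 0 higher in other T cells. The 1 member called in cDC1 with the Wald test, doublets kept or the gate was Il12b. It had 0 UMIs in both control libraries of the main fit. All genes called with doublets kept numbered 20 in cDC1, 35 in regulatory T cells and 10 in other T cells. The gate called 11 genes in cDC1. Between monocytes and macrophages 140 genes differed without the filter. Between CD8 T cells and mononuclear phagocytes 171 did so, and 99 with the gate. The gate and resolution 0.5 gave no value in 1 class each.

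With the replicate block, members higher numbered 5 in mononuclear phagocytes, 4 in macrophages, 2 in dendritic cells, 2 in cDC1, 2 in cDC2, 2 in CD8 T cells, 1 in regulatory T cells, 2 in other T cells and 2 in NK cells, and members lower 1 in CD8 T cells and 1 in NK cells. All genes called with the block numbered 648 in mononuclear phagocytes, 452 in macrophages, 23 in dendritic cells, 56 in cDC1 and 30 in cDC2. They numbered 252 in CD8 T cells, 72 in regulatory T cells, 70 in other T cells and 84 in NK cells. The deviations of libraries with the same number correlated between -0.09 and 0.30, and the labels give no pairing.

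Leaving out each library in turn, the number of members higher ranged from 0 to 8 in neutrophils, 0 to 11 in mononuclear phagocytes, 0 to 6 in monocytes, 0 to 10 in macrophages, 0 to 6 in dendritic cells, 0 to 4 in cDC1, 0 to 6 in cDC2, 0 to 1 in migratory dendritic cells, 0 to 5 in CD8 T cells, 1 to 4 in regulatory T cells, 1 to 3 in other T cells and 0 to 2 in NK cells. Members lower ranged from 0 to 1 in neutrophils, mononuclear phagocytes, monocytes, cDC1 and cDC2, 0 to 4 in CD8 T cells and 0 to 7 in NK cells. Responses that differed ranged from 0 to 3 between monocytes and macrophages and 0 to 5 between CD8 T cells and mononuclear phagocytes. Each of these fits left 1 library in a group. More of all genes were also called in every class than in the main fit, both without control library 1 and without control library 2. Without either liproxstatin library, fewer of all genes were called in some classes and more in others. The ranges thus do not set the members apart from genes in general. Summed over classes, members were called higher more often without control library 1 than without control library 2. The cause was not tested.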

Other observations

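Il23a in NK cells showed large values in single cells. The level was 0.626 and 22.2 CPM in control and 1.38 and 29.3 CPM in liproxstatin libraries. Of the 154 UMIs of control library 2, 64 lay in 1 cell, and of the 194 UMIs of liproxstatin library 2, 188 lay in 1 cell. In neutrophils the libraries numbered 1 were the higher ones instead.

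Malt1 was also listed in classes that were not tested. In plasmacytoid dendritic cells it had 114 and 127 CPM in control and 161 and 141 CPM in liproxstatin libraries. Mast cells and basophils had 58.4 and 79.6 against 90.7 and 52.6 CPM, with overlapping groups.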
